A study of Homo sapiens with 8 samples.

Results

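The genes described here belong by name to the enzymes that remove methyl groups from histone lysines (demethylases, or erasers) and those that add them (methyltransferases, or writers). Some of their products act mainly on other proteins or lack clear activity on histones, as given below. They were chosen by gene symbol among the probe sets with a single annotated symbol: the KDM, KMT and SETD genes that carry a number, NSD1 to NSD3, SUV39H1, SUV39H2, EZH1, EZH2, EHMT1, EHMT2 and DOT1L. This gave 45 of the 18417 genes tested, 18 erasers and 27 writers. KDM4E and KDM4F, which also fit the symbols, were not analysed here. The measured signal was used in 1 step of the choice: a gene with several probe sets is represented by that of highest average signal in the 8 arrays. That decided between probe sets for 4 genes and left no choice for the other 41. For KMT5A the kept probe set had a mean of 10.05 and the closest one set aside had 9.98.

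The cells were U2OS, a human osteosarcoma line, grown in medium with 7.5% serum. Of the 8 arrays, 4 came from cells transfected with siRNA against CDK9 and 4 from cells transfected with a non-targeting siRNA, called control siRNA here. Both groups received 10 nM siRNA and were harvested after 72 h, and the series describes the replicates as biological. The measurements thus concern 1 tumour line and 1 time point, and the labels do not say how many CDK9 siRNAs were used.

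Methylation of lysines in the tails of histones H3 and H4, and of H3K79 in the nucleosome core, marks regions of the genome by their activity. H3K4 methylation marks promoters and enhancers, H3K36 and H3K79 methylation mark transcribed gene bodies, and H3K9, H3K27 and H4K20 methylation are found in silenced or compacted chromatin. Writers take the methyl group from S-adenosylmethionine, mostly through a SET domain. Erasers are either flavin-dependent amine oxidases (the KDM1 enzymes) or JmjC oxygenases that need iron and 2-oxoglutarate. CDK9 is the kinase of P-TEFb, the factor that frees RNA polymerase II from its pause near promoters, and several of these marks are laid down along the elongating polymerase.

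Signals are given as deposited log2 values, in which a difference of 1 is a doubling of signal, and each difference is CDK9 siRNA minus control siRNA. Replicate 1 of both groups (array set 1) read lower, with array medians of 5.85 for CDK9 siRNA and 5.80 for control siRNA, than replicates 2 to 4 (array set 2), whose medians ran from 6.99 to 7.04. Groups were therefore compared within array sets, by limma with a block for array set and Benjamini-Hochberg adjustment over all 18417 genes (adjusted p under 0.05), and the groups are said to overlap or not within a set. Set 1 holds 1 array per group, so overlap can be judged only in set 2, and for set 1 only the direction counts. All 5 measured blood and endothelial markers lay in the lowest 30% of genes and all 8 mesenchymal and osteoblast markers above it. Of 5 epithelial markers EPCAM and CDH1 lay in the lowest 30%, while KRT19, KRT18 and KRT8 had a median percentile of 36.6, 99.6 and 99.7 among genes in control arrays. The arrays measure bulk RNA, so fewer cells in a given state and less RNA per cell cannot be told apart.

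CDK9 itself fell. Its signal was 8.0, 9.03, 9.09 and 9.04 in replicates 1 to 4 given CDK9 siRNA, against 9.80, 10.86, 10.89 and 10.86 in those given control siRNA. The groups did not overlap, and the fitted difference was -1.82 ± 0.05 (SE, n = 4 per group, limma adjusted p = 2.18e-07), which is 28.4% of the control signal.

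Histone lysine methylation enzymes mostly read lower after CDK9 silencing, by small amounts. Of the 45 genes, 12 fell and 2 rose in limma, and 31 did not pass. The genes that fell were the erasers KDM5B, KDM7A, KDM4C, KDM8, KDM2B, KDM1B and KDM6B and the writers SETD3, KMT2E, EHMT2, EHMT1 and NSD1. SETD7 and KDM4D rose. Called genes made up 31.1% of these enzymes, against 14.2% of all genes tested. By direction, 26.7% fell, against 7.47% of all genes, and 4.44% rose, against 6.73%. Only 1 enzyme was dim, and with dim genes left out 16 of 44 enzymes passed, against 23.8% of the 12892 genes then tested. The median log2 difference was -0.13 over the 45 genes and -0.0016 over all genes. Among the 31 that did not pass, 24 had a negative and 7 a positive difference. Only KDM7A differed by more than 1.5-fold, and none by 2-fold.

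Erasers and writers were counted apart, and the difference between their shares was not tested. Kind was taken from the gene name. The writers that fell thus include SETD3 and KMT2E, for which no activity on histones is given below. KDM8, an eraser that fell, has disputed activity on histones. Among the 18 erasers 7 fell and 1 rose, which is 44.4% called, with a median log2 difference of -0.17. Among the 27 writers 5 fell and 1 rose, which is 22.2% called, with a median of -0.10. A negative difference was seen for 16 erasers (88.9%) and 20 writers (74.1%), against 50.5% of all genes. The replicate block called 3 of 18 erasers and 4 of 27 writers. The eraser count also depended on single arrays: it was 3 without CDK9 siRNA replicate 3, control replicate 3 or control replicate 4, where 4, 4 and 5 writers passed. It was 5 without CDK9 siRNA replicate 2 and 4 without control replicate 2, where 5 and 6 writers passed.

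Of the 14 called genes, 7 passed in each of the 8 fits that left out 1 array and with the replicate number of the titles as a block. These were KDM5B, KDM7A, KDM4C, SETD3, EHMT1, EHMT2 and SETD7. Leaving out either replicate 1 array leaves set 1 without a comparison of groups, so these omissions repeat the fit of set 2 alone. The replicate block called 7 enzymes (15.6%), against 9.17% of all genes, and of these 6 fell, against 4.75% of all genes. The other 7, KDM8, KDM2B, KDM1B, KDM6B, KDM4D, KMT2E and NSD1, lost their calls with that block, and their values with it are given beside them. The 14 calls became 7 without CDK9 siRNA replicate 3 or control replicate 3 and 8 without control replicate 4. A fit with no block called 0 of the enzymes and 0 of all genes in limma. At an unadjusted p under 0.05 that fit had 0 of the enzymes and 51 of all genes.

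**Figure D1:**
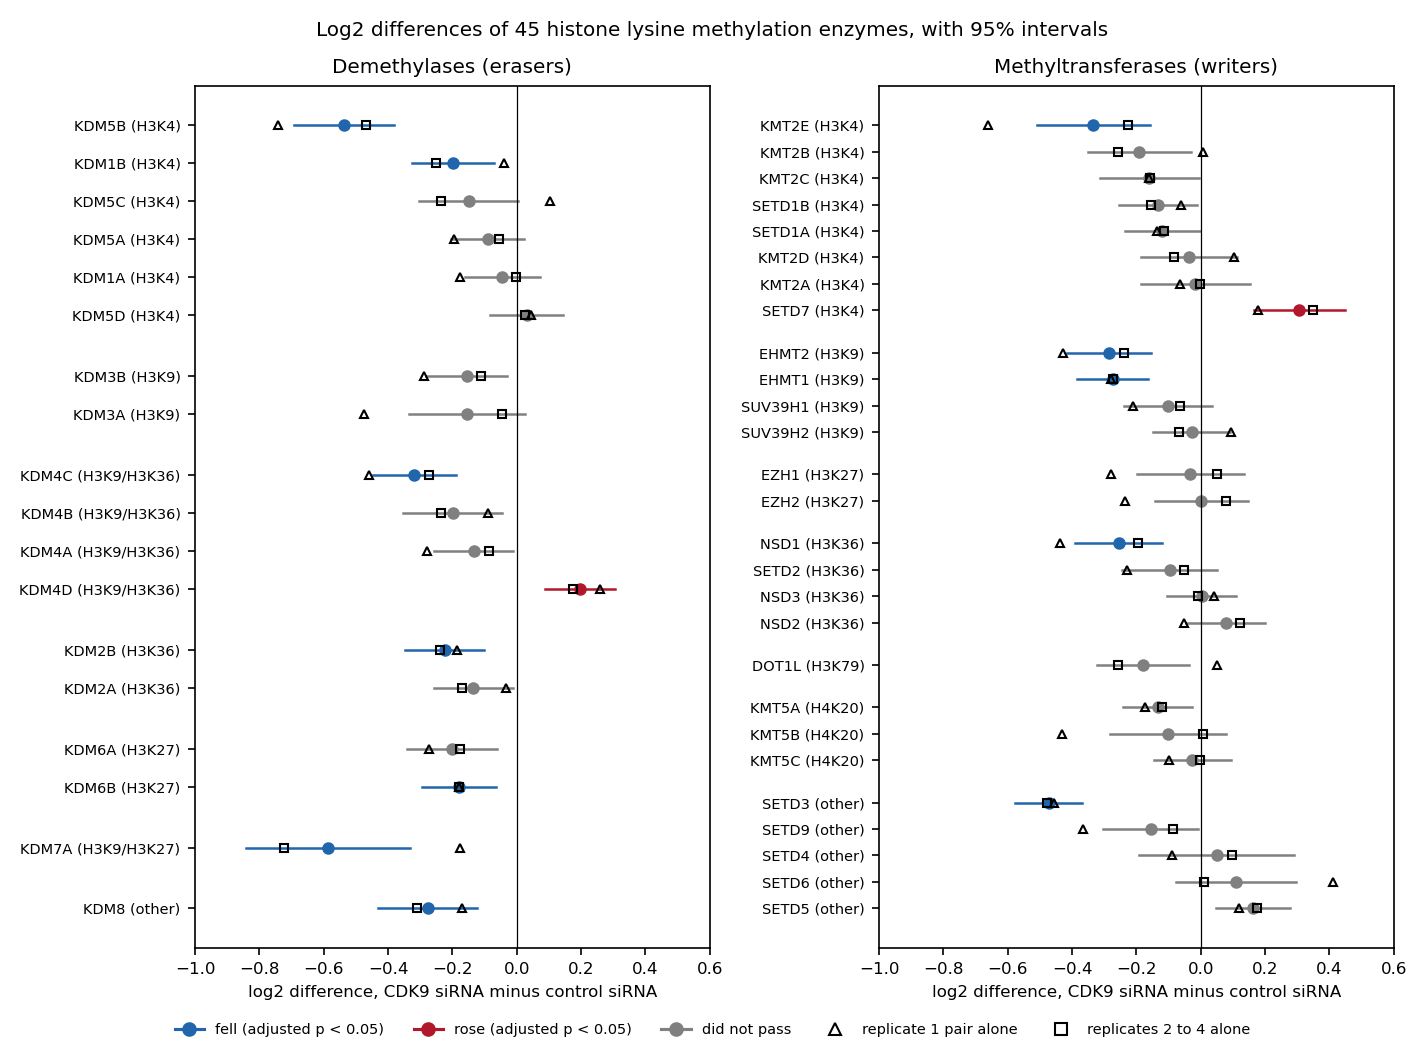
Log2 differences (CDK9 siRNA minus control siRNA, x axis) of 18 erasers (left) and 27 writers (right), grouped by target residue; filled circles with lines are limma estimates with 95% confidence intervals, open triangles the replicate 1 pair alone and open squares replicates 2 to 4 alone. Most circles lie left of 0, KDM7A lowest at -0.59, and SETD7 lies farthest right at 0.31.

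Among the erasers of H3K4 methylation, KDM5B and KDM1B fell and the other 4 did not pass. KDM5B removes trimethylation of H3K4 at promoters. It read 8.16, 10.13, 9.92 and 9.99 in replicates 1 to 4 with CDK9 siRNA, against 8.90, 10.49, 10.49 and 10.46 with control siRNA. Every CDK9 siRNA array lay below every control array of its set. Its fitted difference was -0.54 ± 0.07 (SE, n = 4 per group, limma adjusted p = 0.00138), a signal 31.0% lower. KDM1B, an amine oxidase that acts on mono- and dimethylated H3K4, read 6.99, 7.64, 7.71 and 7.77 with CDK9 siRNA and 7.03, 7.95, 7.96 and 7.97 with control siRNA. In set 2 the groups were clearly apart, while the set 1 pair differed by -0.04. Its difference was -0.20 ± 0.06 (SE, n = 4 per group, limma adjusted p = 0.0486, and 0.104 with the replicate block). KDM1A, the better known amine oxidase of the CoREST complex, differed by -0.04 with a 95% confidence interval of -0.16 to 0.07. KDM5A differed by -0.09 and KDM5C by -0.15, while KDM5D, a dim gene in the lowest 30% by signal, differed by 0.03. For KDM5C set 1 gave 0.10 and set 2 gave -0.23, which passed by itself (limma adjusted p = 0.0170).

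Erasers of H3K9 and H3K36 methylation moved in both directions. KDM4C, which acts on trimethylated H3K9 and H3K36, read 6.30, 7.66, 7.63 and 7.76 with CDK9 siRNA and 6.75, 7.91, 7.95 and 8.0 with control siRNA. It was lower in both sets, without overlap, by -0.32 ± 0.06 (SE, n = 4 per group, limma adjusted p = 0.00698). KDM4D, a shorter relative that acts on H3K9 but not on H3K36, rose. Its signal was 6.21, 6.95, 7.0 and 6.98 with CDK9 siRNA, against 5.95, 6.84, 6.81 and 6.76 with control siRNA, again without overlap. The difference was 0.20 ± 0.05 (SE, n = 4 per group, limma adjusted p = 0.0264, and 0.0762 with the replicate block). The relatives KDM4A (-0.13) and KDM4B (-0.20, adjusted p = 0.0877) did not pass. Nor did KDM3A and KDM3B, which act on mono- and dimethylated H3K9. The KDM3A difference of -0.15 combined -0.47 from set 1 with -0.05 from set 2, and KDM3B differed by -0.16.

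KDM2B, a CpG island-binding eraser of H3K36 dimethylation that also recruits a Polycomb complex, fell. It read 6.77, 7.86, 7.98 and 8.02 with CDK9 siRNA and 6.96, 8.18, 8.14 and 8.25 with control siRNA, with no overlap in either set. The difference was -0.22 ± 0.06 (SE, n = 4 per group, limma adjusted p = 0.0263, and 0.0542 with the replicate block). Its relative KDM2A, at -0.13, missed the threshold (adjusted p = 0.140).

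Erasers that act on H3K27 methylation all read lower, and 2 of the 3 passed. KDM7A, which acts on dimethylated H3K9 and H3K27, had the largest difference of the 45 genes. Its signal was 5.67, 6.56, 6.65 and 6.93 with CDK9 siRNA, against 5.84, 7.34, 7.46 and 7.51 with control siRNA. The groups did not overlap, but the gap was wider in set 2 (-0.72) than in set 1 (-0.17). Both together gave -0.59 ± 0.11 (SE, n = 4 per group, limma adjusted p = 0.00924), a signal 33.4% lower. KDM6B, an inducible eraser of H3K27 trimethylation, read 6.30, 7.82, 7.71 and 7.68 with CDK9 siRNA and 6.48, 7.90, 7.95 and 7.91 with control siRNA. All CDK9 siRNA arrays lay below the controls of their set, by -0.18 ± 0.05 (SE, n = 4 per group, limma adjusted p = 0.0451, and 0.101 with the replicate block). KDM6B also missed the threshold in set 2 alone (0.0563) and with arrays centred on their medians (0.0690). KDM6A differed by -0.20, more than KDM6B, but varied more and did not pass (adjusted p = 0.0631).

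KDM8, a JmjC protein whose activity on histones is disputed, fell in its kept probe set. That probe set read 5.92, 7.13, 7.05 and 7.30 with CDK9 siRNA and 6.09, 7.46, 7.55 and 7.40 with control siRNA, without overlap. The difference was -0.28 ± 0.07 (SE, n = 4 per group, limma adjusted p = 0.0271, and 0.0715 with the replicate block). A second KDM8 probe set, of lower signal, differed by -0.08 and did not pass, and the mean of both gave an adjusted p of 0.206.

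Of the 8 writers of H3K4 methylation, KMT2E fell and SETD7 rose. KMT2E carries the KMT2 family name and lacks detectable activity on histones. Its signal was 7.79, 9.34, 9.31 and 9.38 with CDK9 siRNA, against 8.45, 9.53, 9.59 and 9.58 with control siRNA. The groups did not overlap, and the gap was wider in set 1 (-0.66) than in set 2 (-0.22). The joint difference was -0.33 ± 0.08 (SE, n = 4 per group, limma adjusted p = 0.0210, and 0.0598 with the replicate block). SETD7 monomethylates H3K4 as well as several non-histone proteins. It read 9.82, 9.93, 10.12 and 10.12 with CDK9 siRNA and 9.64, 9.67, 9.72 and 9.73 with control siRNA. Every CDK9 siRNA array lay above every control array, across both sets. The difference was 0.31 ± 0.06 (SE, n = 4 per group, limma adjusted p = 0.0119), a signal 23.7% higher. The main promoter and enhancer writers did not pass. KMT2A differed by -0.02 and KMT2D by -0.04, and the 95% confidence interval was -0.19 to 0.15 for KMT2A and -0.18 to 0.11 for KMT2D. The differences of KMT2B (-0.19), KMT2C (-0.16), SETD1A (-0.12) and SETD1B (-0.13) were all negative. KMT2B passed in set 2 alone (-0.26, limma adjusted p = 0.0416), while set 1 gave 0.01. KMT2A turned to 0.01 when its 2 probe sets were averaged.

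The partner enzymes EHMT1 and EHMT2, which act as a heterodimer to mono- and dimethylate H3K9, both fell. EHMT1 read 7.91, 8.40, 8.44 and 8.53 with CDK9 siRNA and 8.19, 8.74, 8.71 and 8.74 with control siRNA. EHMT2 read 7.47, 8.79, 8.85 and 8.72 with CDK9 siRNA and 7.89, 8.97, 9.03 and 9.07 with control siRNA. Neither gene overlapped between groups in either set. The difference was -0.27 ± 0.05 for EHMT1 (SE, n = 4 per group, limma adjusted p = 0.00664) and -0.29 ± 0.06 for EHMT2 (adjusted p = 0.0118). A second EHMT2 probe set held the same values in all 8 arrays and adds no evidence. The writers of H3K9 trimethylation in constitutive heterochromatin did not pass, SUV39H1 at -0.10 and SUV39H2 at -0.03.

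Writers of H3K27, H3K79 and H4K20 methylation gave 0 calls among 6 genes, against 14.2% of all genes called. At that share 0 calls among 6 genes is not unusual. EZH2, the main catalytic subunit of Polycomb complex PRC2, differed by 0.00 with a 95% confidence interval of -0.14 to 0.15. Its relative EZH1 differed by -0.03, and for both the set 1 pair was negative and set 2 positive. DOT1L, the writer of H3K79 methylation that travels with elongation factors, differed by -0.18 (adjusted p = 0.0956). It passed with set 2 alone, at -0.26 (limma adjusted p = 0.00902), while set 1 gave 0.05. Among H4K20 writers KMT5A differed by -0.13, KMT5B by -0.10 and KMT5C by -0.03. For KMT5B set 1 gave -0.43 and set 2 gave 0.01. KMT5A was measured by 3 probe sets, with differences of -0.13, -0.13 and -0.22, none of which passed.

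Of the H3K36 writers, 1 of 4 fell. NSD1, which dimethylates H3K36, read 8.72, 9.65, 9.67 and 9.74 with CDK9 siRNA and 9.15, 9.84, 9.87 and 9.93 with control siRNA. CDK9 siRNA was lower in set 1 and without overlap with control siRNA in set 2. The difference was -0.26 ± 0.06 (SE, n = 4 per group, limma adjusted p = 0.0211, and 0.0542 with the replicate block). NSD2 (0.08) and NSD3 (0.00) did not pass, and for NSD3 CDK9 siRNA replicate 3 stood apart. SETD2, which trimethylates H3K36 while bound to the elongating polymerase, differed by -0.10 with a 95% confidence interval of -0.25 to 0.05, and its control replicate 2 lay apart from the other controls.

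Among the remaining SET-domain genes, whose products act mainly on other proteins or are little characterised, SETD3 fell. SETD3 methylates a histidine of actin rather than a histone lysine, so its name does not describe a histone writer. Its signal was 7.66, 8.44, 8.45 and 8.49 with CDK9 siRNA, against 8.11, 8.95, 8.97 and 8.90 with control siRNA. The groups were far apart relative to their spread, and the gap was alike in set 1 (-0.46) and set 2 (-0.48). The difference was -0.47 ± 0.05 (SE, n = 4 per group, limma adjusted p = 0.000376), the smallest adjusted p of the 45 genes. SETD5 differed by 0.16, was higher in set 1 and without overlap in set 2, yet it did not pass (adjusted p = 0.0667). SETD4 (0.05), SETD6 (0.11) and SETD9 (-0.16) did not pass either. SETD6 gave 0.41 in set 1 but 0.01 in set 2, and SETD4 was high in CDK9 siRNA replicate 4.

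**Figure D2:**
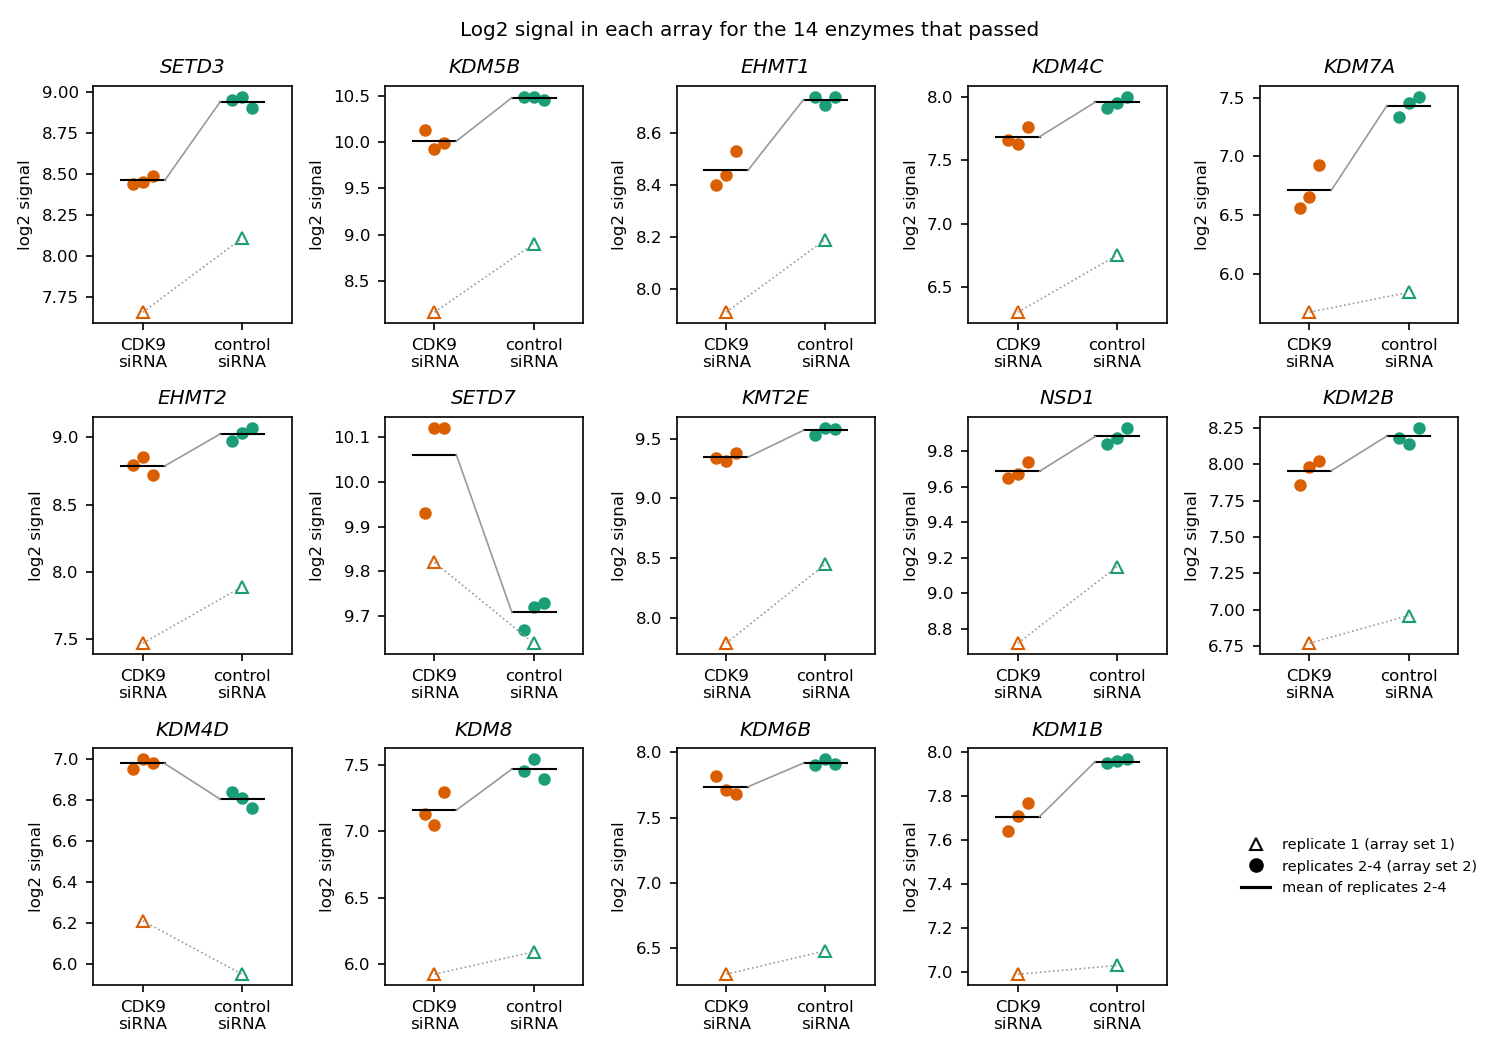
Log2 signal (y axis, scaled per gene) in each array for the 14 genes that passed, with CDK9 siRNA left and control siRNA right in each panel; triangles are replicate 1, circles replicates 2 to 4 and black bars the mean of replicates 2 to 4. Both sets slope the same way in every panel, upward to the control for 12 genes and downward for SETD7 and KDM4D.

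Promoter sequence is shown for the H3K9 partners that fell together, EHMT1 and EHMT2, for KDM5B and SETD3, the genes with the smallest adjusted p, and for SETD7, which rose. RefSeq promoters (build GRCh38.p14) were matched by symbol for 42 of the 45 genes, and the 250 bases before the annotated start were searched on both strands for 6 motifs, from the first start listed where a gene had several. Capitals mark the GC box (GGGCGG), the E-box (CACGTG), the ETS core (CGGAAG) and the CCAAT box (CCAAT), which may overlap one another. The sequences below run 5′ to 3′ on the gene's strand: KDM5B at chr1:202808422-202808671 (minus), EHMT1 at chr9:137618755-137619004 (plus), EHMT2 at chr6:31897699-31897948 (minus), SETD3 at chr14:99480860-99481109 (minus) and SETD7 at chr4:139556220-139556469 (minus).
KDM5B: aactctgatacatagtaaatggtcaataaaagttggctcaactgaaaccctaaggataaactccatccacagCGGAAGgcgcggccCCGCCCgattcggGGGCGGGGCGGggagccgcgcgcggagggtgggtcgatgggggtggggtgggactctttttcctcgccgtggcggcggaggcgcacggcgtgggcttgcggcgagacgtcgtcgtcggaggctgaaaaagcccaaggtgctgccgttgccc
EHMT1: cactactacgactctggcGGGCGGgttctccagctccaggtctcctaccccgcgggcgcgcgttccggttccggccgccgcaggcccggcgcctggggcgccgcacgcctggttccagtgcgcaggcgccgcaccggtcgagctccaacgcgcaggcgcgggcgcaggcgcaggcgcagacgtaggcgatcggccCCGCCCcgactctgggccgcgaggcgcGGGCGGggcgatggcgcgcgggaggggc
EHMT2: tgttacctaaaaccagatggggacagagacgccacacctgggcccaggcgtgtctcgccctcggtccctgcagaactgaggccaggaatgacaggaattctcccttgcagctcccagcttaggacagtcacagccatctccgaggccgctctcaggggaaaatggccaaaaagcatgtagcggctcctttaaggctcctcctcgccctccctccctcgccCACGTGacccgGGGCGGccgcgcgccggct
SETD3: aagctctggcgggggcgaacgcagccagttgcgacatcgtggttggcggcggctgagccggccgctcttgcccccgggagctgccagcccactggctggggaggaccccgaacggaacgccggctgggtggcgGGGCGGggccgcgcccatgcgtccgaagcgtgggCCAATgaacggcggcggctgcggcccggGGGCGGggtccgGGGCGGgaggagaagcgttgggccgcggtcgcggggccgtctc
SETD7: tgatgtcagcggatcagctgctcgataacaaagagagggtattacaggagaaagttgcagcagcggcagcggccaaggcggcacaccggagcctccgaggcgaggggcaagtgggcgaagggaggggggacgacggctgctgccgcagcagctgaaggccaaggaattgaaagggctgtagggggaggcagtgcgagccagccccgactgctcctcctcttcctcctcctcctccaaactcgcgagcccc

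KDM5B, EHMT1 and SETD3 each held 3 GC boxes, EHMT2 held 1 beside an E-box, and SETD7 held none of the motifs in capitals. Over the 42 promoters, 33 (78.6%) held a GC box, against 57.5% of the 14239 promoters of genes tested. An ETS core was found in 33.3% against 22.2%, an E-box in 16.7% against 7.86% and a CCAAT box in 33.3% against 34.4%. The TATA box (TATAAA) was in 0 of 42 promoters, against 8.60%, and the AP-1 site (TGANTCA) in 4.76% against 4.91%. Among genes that fell, against those that did not pass, a GC box was in 10 of 12 against 22 of 28, an ETS core in 4 of 12 against 9 of 28, an E-box in 3 of 12 against 4 of 28 and a CCAAT box in 2 of 12 against 11 of 28. These differences were not tested. The median number of CpG dinucleotides was 24 in the enzymes' promoters and 18 in those of all genes tested. These are counts of letters in the window and no measure of binding. Only 1 of the 45 enzymes was dim, against 30% of all genes, and the promoters were not matched for signal.

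The 2 array sets give separate views of each enzyme, since they share no array. Of the 45 genes, 29 (64.4%) were lower in both sets, against 29.0% of all genes, and 5 were higher in both, against 27.9% of all genes. The shares of all genes include dim genes, while only 1 enzyme was dim. All 14 called genes had the same sign in both sets, but they were called from both sets together, which favours such genes. The median difference of the enzymes was -0.17 in set 1, against 0.0031 over all genes, and -0.11 in set 2, against -0.0055 over all genes. Pearson's r between the sets was 0.44 (Spearman's rho 0.35) across the 45 genes, compared with 0.37 (rho 0.25) across all 18417 genes. This is a description, because genes on the same arrays are not independent. In a limma test of whether the 2 sets differ in their group difference 0 enzymes passed, against 2.14% of all genes, a share at which few of 45 would pass. Unadjusted, 11 enzymes had a p under 0.05 in that test, and the share of all genes at that cut was not counted. Set 1 holds 1 array per group, so the spread in this test comes from set 2. Passing 0 enzymes does not show that the sets agree. The smallest adjusted p in that test among the 45 was 0.0622.

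A count that uses no model gave a like picture. For 21 enzymes the CDK9 siRNA array was lower in set 1 and all 3 CDK9 siRNA arrays were below all 3 controls in set 2, which held for 13.8% of all genes and 46.7% of these. Besides the 12 that fell these were KDM6A, KDM4B, KMT5A, KDM3B, KDM2A, KDM4A, SETD1B, SETD1A and KDM5A. The reverse held for 3 enzymes, SETD7, KDM4D and SETD5, which is 6.67% against 11.5% of all genes. By kind, 13 of 18 erasers and 8 of 27 writers were separated downward. Here too the shares of all genes include the dim ones, and the enzymes were not matched to them for signal.

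**Figure D3:**
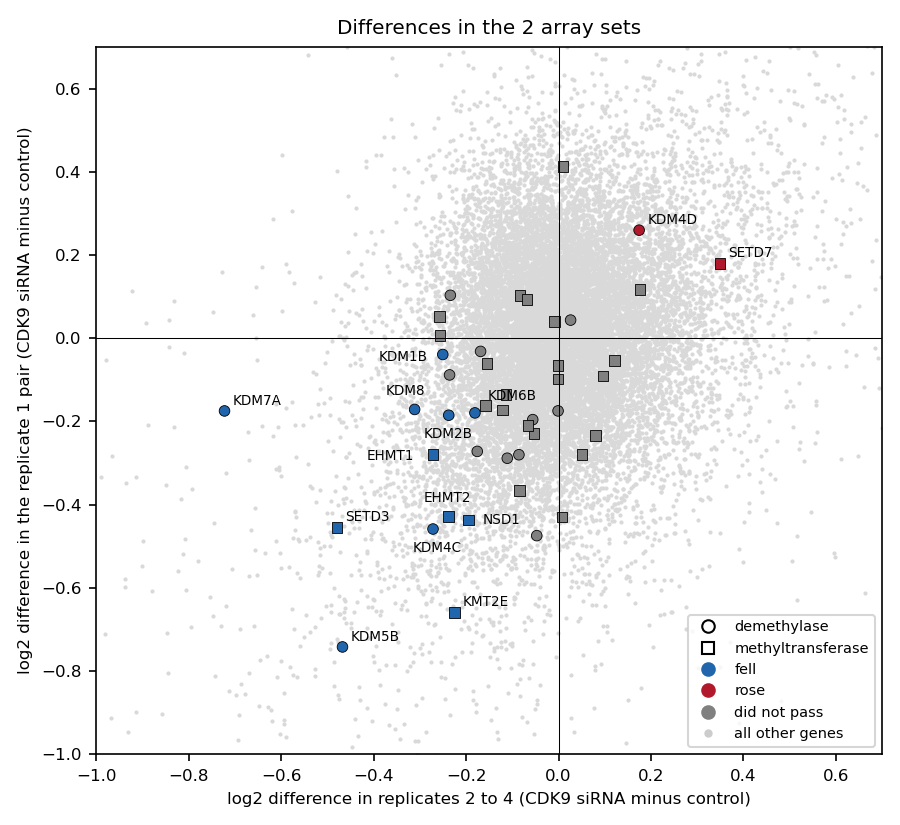
Log2 difference in the replicate 1 pair (y axis) against that in replicates 2 to 4 (x axis), each CDK9 siRNA minus control siRNA; circles are erasers, squares writers, colours the call and pale dots all other genes, with both axes limited to the range of the enzymes. Of the 45 enzymes, 29 lie in the lower left quadrant and 5 in the upper right.

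Enzymes that share a family name could also be compared within each array, through the log2 ratio of 2 genes of a family. All 36 pairs in 13 families were compared by an exact two-sided permutation test within array sets, in which 40 arrangements allow no p below 0.05. Benjamini-Hochberg adjustment over the pairs then gave no value below 0.139, so no pair passed. Sizes are given with 95% confidence intervals that are not adjusted over the 36 pairs, which were added after values were seen. The NSD1 to NSD2 log2 ratio changed by -0.33 ± 0.02 (SE), with a 95% confidence interval of -0.39 to -0.28. Within the KDM5 family the KDM5B to KDM5C ratio changed by -0.39 ± 0.13 (-0.72 to -0.06) and the KDM5A to KDM5B ratio by 0.45 ± 0.07 (0.26 to 0.63). The ratio of KDM4C to KDM4D, whose own differences had opposite signs, changed by -0.51 ± 0.07 (-0.70 to -0.33). For each of these 4 pairs the exact permutation p was 0.05, as for 13 of the 36 pairs. In the EHMT pair the ratio changed by 0.01 ± 0.07 (-0.16 to 0.19), and in the KDM6 pair by -0.02 ± 0.07 (-0.21 to 0.17). The KMT2B to KMT2E ratio changed by 0.14 ± 0.14 (-0.22 to 0.51), with 0.67 in set 1 and -0.03 in set 2.

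**Figure D4:**
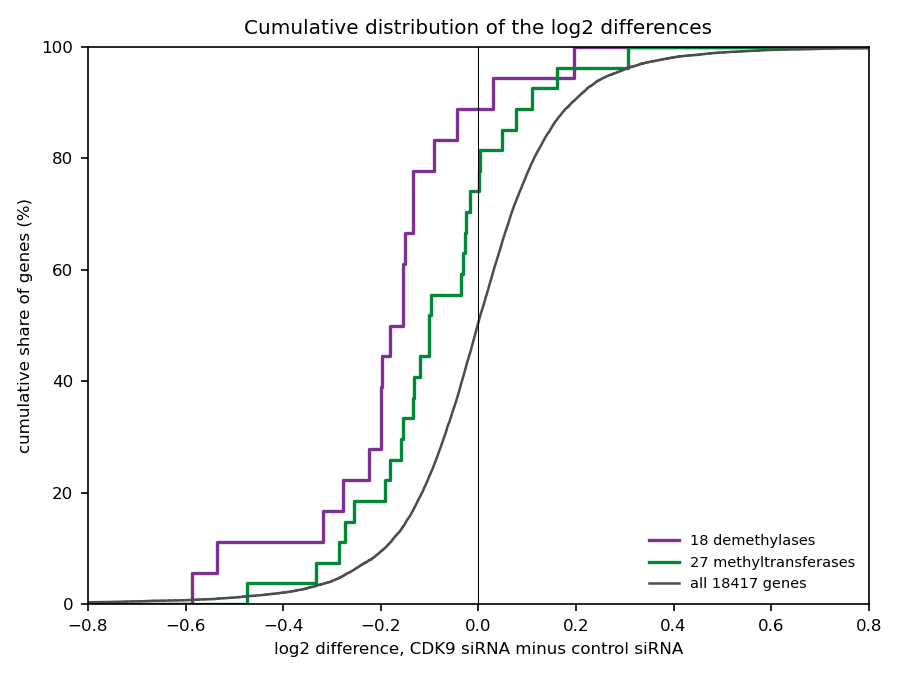
Cumulative share of genes (y axis, %) by log2 difference (x axis, CDK9 siRNA minus control siRNA, shown from -0.8 to 0.8) for erasers, writers and all 18417 genes. At 0 the erasers have reached 88.9%, the writers 74.1% and all genes 50.5%.

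Genes that work with these enzymes were looked at in 10 lists. Over their 126 measured genes 17 fell and 7 rose, which is 19.0% called, against 14.2% of all genes, with a median of -0.05. By direction 13.5% fell, against 7.47% of all genes, and 5.56% rose, against 6.73%. In the list of CoREST and NuRD, deacetylase complexes that can hold KDM1A, 6 of 19 fell and 0 rose (median -0.17). All 6 are NuRD subunits, no gene particular to CoREST passed, and 3 of the 6 kept their calls with the replicate block. MTA2 (-0.38), the chromatin remodeller CHD4 (-0.29) and MTA3 (-0.28) were those 3. In the COMPASS and MLL list, the shared subunits of H3K4 writers, 3 of 16 fell and 1 rose (median -0.02), with HCFC2 at -0.38, the CpG-binding subunit CXXC1 at -0.25 and WDR82 at 0.23. CXXC1 and WDR82 did not pass with the replicate block (limma adjusted p = 0.0652 and 0.0550).

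PRC2 subunits gave 1 fall among 12 genes, the accessory subunit JARID2 (-0.18, adjusted p = 0.0844 with the replicate block), and a median of 0.04. Partners of H3K9 silencing gave 2 falls and 1 rise among 14, with the heterochromatin protein CBX5 at 0.29, MORC2 at -0.19 and TRIM28 at -0.17. The last 2 lost their calls with the replicate block (limma adjusted p = 0.10 and 0.106). All 7 listed partners of DOT1L had a negative difference, against 50.5% of all genes. Of them 1, MLLT1 (-0.29), fell, which is 14.3% called, against 14.2% of all genes. Among 12 other SET and PRDM genes the zinc finger gene MECOM (-0.58) and SMYD5 (-0.25) fell. Of 13 other JmjC genes HIF1AN, an oxygenase that hydroxylates the hypoxia factor HIF, rose (0.32) and JARID2 fell.

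Arginine methyltransferases gave 1 fall among 10, that of WDR77 (-0.18), the partner subunit of PRMT5. H2B ubiquitylation and the PAF1 complex precede H3K4 and H3K79 methylation on transcribed genes. In the list on H2B ubiquitin and the PAF1 complex, WAC (0.27) rose and USP22 (-0.18), which removes ubiquitin, fell among 12. WDR77 and USP22 lost their calls with the replicate block (limma adjusted p = 0.0973 and 0.110). In the list on supply of the methyl donor and of 2-oxoglutarate, 3 of 14 rose and 0 fell. IDH1, the cytosolic isocitrate dehydrogenase that makes 2-oxoglutarate, rose by 0.69 ± 0.06 (SE, n = 4 per group, limma adjusted p = 0.000176). MTRR (0.23) and IDH3A (0.20) lost theirs with the replicate block (limma adjusted p = 0.0558 and 0.0746).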

How the data were processed

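RNA from 8 cultures was measured on Affymetrix human gene arrays. The authors deposited log2 expression values for 33297 probe sets. Tools named in the submitters' processing notes are limma, RMA, the Expression Console 1.1 of Affymetrix and build hg19. Their roles, and whether all arrays were normalized together, are not given there. Titles gave the groups, and gaps in the description numbers gave the array sets. Probe sets with 1 symbol in the platform annotation (19460, against 1754 with several and 12083 with none) were reduced to 18417 genes by the highest mean. RefSeq names changed 0 symbols. The number of arrays limits the precision.

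Differences were tested with limma 3.58.1 (R 4.3.3; lmFit, eBayes, two-sided, array set as a block, Benjamini-Hochberg over all genes). Intervals are 95%. Plots used Python 3.11.15 and matplotlib 3.10.9. On data simulated for this comparison with 18417 genes, the fit recovered 38% of 1.2-fold, 90% of 1.5-fold, 98% of 2-fold and 100% of 4-fold changes, and 5 of 168 calls were unchanged genes. Far fewer genes were changed there than passed in the data (168 calls against 2615), so the adjusted threshold was stricter. The simulated noise was independent and normal, with the same effect in both array sets, so these shares need not hold for the data.

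The enzymes and partner lists were chosen with earlier results of these data known. Every enzyme is named with its difference, those that passed with each array's value, and of each partner list at most the 3 largest differences that passed. Family pairs were added after values were seen. Same-numbered arrays of the groups had deviations from group means that correlated at 0.82, 0.54, 0.49 and 0.61 for replicates 1 to 4. The number was treated as a pairing in the replicate block only, and the main fit is not paired. With set means removed, replicates 2 to 4 gave 0.11, -0.01 and 0.17, and arrays of different number gave -0.18 to 0.08. The higher values thus come mainly from the offset between array sets. Alternatives were no block, the replicate block, array set 2 alone, median centring, renewed quantile normalization, no dim genes, mean probe sets, trend with robust moderation, and each array left out.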

Additional observations from a re-analysis of the deposited data

Results flagged for a closer look

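Each group of 4 arrays was searched for a single array far from the other 3, after the mean of its array set had been removed, for CDK9 and the 45 enzymes. Of 92 groups 5 had such an array, and chance alone marks about 5% of groups. For SETD2, control replicate 2 read -0.115 from its set mean, against 0.0944 to 0.114 in the other controls. SETD4 stood out in CDK9 siRNA replicate 4, at 0.296 against -0.107 to -0.0439. NSD3 was low in CDK9 siRNA replicate 3, at -0.0618 against 0.0170 to 0.0315. Array set 1 holds 1 array per group, so a deviation from its set mean is by construction minus or plus 0.5 times the set 1 difference and cannot show which of the 2 arrays stood apart. For KMT5B control replicate 1 was at 0.215 on this measure, against -0.0131 to 0.00671 in the other controls, which restates that set 1 (-0.43) and set 2 (0.01) differ. For KDM5C it was at -0.0516, against 0.105 to 0.127, which restates set 1 (0.10) against set 2 (-0.23). In limma 0 of these 5 genes passed.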

How the results depend on the processing

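With no block 0 enzymes passed (0 erasers, 0 writers, 0 residue classes), as did 0 of all genes and 0 in every partner list, and CDK9 kept its difference of -1.82 (adjusted p = 1). With the replicate block, a pairing taken from the titles, 7 enzymes passed, of which 3 were erasers, in 6 of the 10 residue classes that had a call, beside 1688 of all genes against 2615. That block left 1 call for COMPASS and MLL, 0 for PRC2, 3 for CoREST and NuRD, 1 for H3K9 partners, 1 for other JmjC genes, 0 for arginine methyltransferases, 1 for H2B and PAF1 and 1 for methyl donor supply. The 7 enzymes were all among the 14, whose lost calls are given above. Set 2 alone gave 3 calls for PRC2 and 2 for DOT1L partners. Median centring gave 0 for PRC2, 1 for other JmjC genes, 0 for arginine methyltransferases and 1 for H2B and PAF1, and renewed quantile normalization gave 2 for PRC2. Without dim genes PRC2 had 3, CoREST and NuRD 10 and arginine methyltransferases 2. With trend and robust moderation PRC2 had 5, DOT1L partners 3, arginine methyltransferases 2 and methyl donor supply 5. Differences that changed sign were those of EZH1 (0.0505), KMT5B (0.0075) and NSD3 (-0.0089) with set 2 alone, KDM5D (-0.00217) after quantile normalization and KMT2A (0.0123) with probe sets averaged. The estimate is the same with no block, the replicate block, no dim genes or trend with robust moderation, so direction could not change there. In settings that kept all arrays or set 2 alone, single-gene results otherwise kept their direction and side of the threshold in 315 cases. Those include genes that passed in neither fit, while 29 results lost the call and 10 gained one. The causes were not tested, beyond the fewer arrays or genes of some alternatives. Each array was also left out in turn, and without either replicate 1 array the fit was that of set 2 alone. Leaving out 1 array at a time gave 7 to 16 enzymes, 3 to 8 erasers, 4 to 8 writers, 6 to 10 residue classes and 1520 to 3331 of all genes. The enzyme median stayed between -0.15 and -0.11 and CDK9 between -1.83 and -1.81. The same omissions gave 1 to 4 calls for COMPASS and MLL, 0 to 3 for PRC2, 3 to 6 for CoREST and NuRD, 1 to 2 for H3K9 partners, 1 to 2 for DOT1L partners, 1 to 2 for other SET genes, 1 to 3 for other JmjC genes, 0 to 1 for arginine methyltransferases, 1 to 2 for H2B and PAF1 and 1 to 3 for methyl donor supply. Among single genes they turned the sign of EZH1 (-0.0865 to 0.0505), EZH2 (-0.0249 to 0.0799), KMT2A (-0.0667 to 0.0342), KMT2D (-0.0830 to 0.0042), KMT5B (-0.15 to 0.0075), NSD3 (-0.0089 to 0.0257) and SETD4 (-0.0461 to 0.10). The 2 array sets, their scale difference of unknown origin and 4 arrays per group limit all of these values.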
